A study of Mus musculus with 2 samples.

Results

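The erythroid genes described here are 9 genes of the red cell programme, read in long-term hematopoietic stem cells (LT-HSCs) of aged mice: *Gata1*, *Klf1*, *Epor*, *Alas2*, *Car1*, *Car2* and the adult globins *Hba-a1*, *Hbb-b1* and *Hbb-b2*. They were taken by gene name and account for 10 of 55662 probes and for 9 of 22556 named genes on the array. Of these 9 genes, 7 were well above background on both arrays, and *Hbb-b1* and *Hbb-b2* were on neither. The set was selected on the log2 signals of both arrays (wild-type against p38KO), so its values and folds are a description with no test.

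Red cells form from HSCs through megakaryocyte/erythroid progenitors under the transcription factors GATA1 and KLF1, while erythropoietin, read by its receptor on the cell surface, keeps the young erythroid cells alive. The programme ends in cells filled with hemoglobin, made of α-globin and β-globin chains and of heme, whose synthesis in red cell precursors starts with the enzyme ALAS2. Carbonic anhydrases, which interconvert carbon dioxide and bicarbonate, are abundant in red cells, and the membrane is held by a skeleton of spectrin and ankyrin. HSCs are known to carry low levels of some lineage genes before they commit.

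LT-HSCs of 2-year-old C57BL/6J mice were sorted from bone marrow, and the RNA was hybridized to single-colour arrays, 1 array per genotype. In the group labelled p38KO, *p38α* (*Mapk14*) carried flox sites on both alleles, and CAG-CreERT2, a tamoxifen (TAM)-activated Cre, was expressed from the CAG promoter, which is active in nearly all cell types. The wild-type group were Cre(-) mice of the same age with the same floxed alleles, and per the methods both groups received TAM, at an age of about 1 year (50 to 60 weeks), with analysis about 1 year after. The sample labels give the sort as CD150+CD48-Flt3-CD34- LSK (lineage-Sca-1+c-Kit+) cells, the methods add CD41-, and the series text names CD34-Flt3- LSK cells. The lineage antibodies included TER-119, an erythroid surface marker. How many mice gave RNA to each array, and their sex, is not given in the sources used here.

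With 1 array per genotype, genotype, mouse and array cannot be told apart. The only errors at hand were technical, between repeated spots of a probe and as estimated by the scanner software. Over probes with at least 5 spots per array, the median SD of repeated spots within each array was combined into a spot SD of a log2 difference. It was 0.28 for signals under 50, 0.11 for signals of 50 to 500 and 0.08 for brighter ones. This spot SD holds no variation from array to array. Each probe of the 9 genes had 1 spot. For their measured probes the software error of the log2 difference was 0.20 to 0.23, larger than the spot SD for all but *Alas2*. *Mapk14*, the targeted gene, was read by 2 probes with log2 signals of 2.34 and 2.08 on the wild-type array and 2.31 and 2.03 on the other, differences of -0.04 and -0.05. Whether these probes lie in the deleted part of the gene is not given in the sources used here, so the labels are not checked by them, and the second array is called the array labelled p38KO throughout. By genomic PCR of blood cells from such mice, the paper reports a lowered level of the gene and not its full absence. It also reports lower expression of p38 pathway genes in the deleted LT-HSCs. Log2 signals are relative to the 75th percentile of each array, which was 0.32 lower on the array labelled p38KO before scaling. The 10 HSC markers were well above background on both arrays, and 9 of the 10 had lower values on the array labelled p38KO (median log2 difference -0.66), among them *Procr* (4.38 and 3.17) and *Slamf1* (-1.26 and -2.08), both HSC surface receptors.

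The probes decide what a globin signal means, so those in the coding parts of an α-globin and a β-globin gene are shown first. Each is 60 bases long, 5′ to 3′. Capitals mark the 25 bases that are the same in both when the probes are set side by side without gaps over 40 bases. The *Hba-a1* probe lies at chr11:32183955-32184014 on the plus strand (mm9, per the array design), and no position is given for the *Hbb-b2* probe.
Hba-a1: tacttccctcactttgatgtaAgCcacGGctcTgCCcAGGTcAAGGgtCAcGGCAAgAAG
Hbb-b2: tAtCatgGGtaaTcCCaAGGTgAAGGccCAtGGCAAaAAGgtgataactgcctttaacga
The array design lists the transcripts of both *Hba-a1* and *Hba-a2* for the *Hba-a1* probe, so it cannot separate the 2 genes. It lists the transcripts of *Hbb-b2* and *Hbb-b1* for the *Hbb-b2* probe. As background, C57BL/6 mice carry the β-globin genes *Hbb-bs* and *Hbb-bt* in place of *Hbb-b1* and *Hbb-b2*. The *Hbb-b1* probe also lists an *Hbb-bs* transcript, and 46 of its bases in a row match the RefSeq start of *Hbb-bs* from base 5 on. This places it at the far 5′ end of the transcript. The match runs to the end of the *Hbb-bs* window at hand, so the rest of the probe was not compared.

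Among the 9 genes *Car1* alone had 2 probes, both in the coding part and on the minus strand of mm9. The brighter one is at chr3:14767486-14767545 and the dimmer one at chr3:14770171-14770230.
Car1, brighter probe: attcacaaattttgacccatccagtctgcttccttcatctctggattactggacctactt
Car1, dimmer probe: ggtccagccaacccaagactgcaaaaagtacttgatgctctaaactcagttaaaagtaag
No base is capitalised in this pair, since the probes cover separate stretches.

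The promoters are shown because GATA1 binds sites built on GATA and KLF1 binds CACCC boxes. RefSeq promoter windows (GRCm38.p6) were found for 5 of the 9 genes and for *Hba-a2*, *Hbb-bt*, *Rhag*, *Rhd* and *Add2*, whose values are given further on. The letters GATAA and CACCC were searched on both strands in the 250 bases before the start. Capitals mark each match, with the other strand read as TTATC and GGGTG.
Hba-a1, chr11:32283422-32283671, plus strand: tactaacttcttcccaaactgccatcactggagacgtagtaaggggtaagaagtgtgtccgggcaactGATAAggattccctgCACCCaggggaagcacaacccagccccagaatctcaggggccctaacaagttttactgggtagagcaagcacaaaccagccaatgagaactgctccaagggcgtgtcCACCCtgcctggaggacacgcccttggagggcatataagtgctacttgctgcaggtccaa
Hbb-bt, chr7:103813924-103814173, minus strand: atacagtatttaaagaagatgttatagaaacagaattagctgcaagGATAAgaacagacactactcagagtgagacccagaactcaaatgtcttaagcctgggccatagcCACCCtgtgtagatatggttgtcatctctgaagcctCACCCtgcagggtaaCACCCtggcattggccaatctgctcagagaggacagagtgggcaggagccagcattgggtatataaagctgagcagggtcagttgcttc
Klf1, chr8:84901732-84901981, plus strand: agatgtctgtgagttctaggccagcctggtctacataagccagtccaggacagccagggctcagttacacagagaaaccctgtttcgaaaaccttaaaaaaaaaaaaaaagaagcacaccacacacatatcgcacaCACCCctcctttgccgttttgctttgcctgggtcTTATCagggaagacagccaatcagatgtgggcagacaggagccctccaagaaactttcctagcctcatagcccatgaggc
Alas2, chrX:150547167-150547416, plus strand: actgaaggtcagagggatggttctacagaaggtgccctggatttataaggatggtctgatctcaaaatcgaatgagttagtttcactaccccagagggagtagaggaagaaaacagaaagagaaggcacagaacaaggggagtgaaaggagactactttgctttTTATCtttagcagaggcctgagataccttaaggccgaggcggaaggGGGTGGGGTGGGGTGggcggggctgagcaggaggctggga
Rhag, chr17:40810899-40811148, plus strand: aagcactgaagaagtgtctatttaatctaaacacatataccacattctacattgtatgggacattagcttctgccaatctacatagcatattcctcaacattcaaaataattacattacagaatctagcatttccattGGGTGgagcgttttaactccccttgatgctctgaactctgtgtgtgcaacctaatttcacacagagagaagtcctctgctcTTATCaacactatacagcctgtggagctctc
GATAA occurred in 22.6% of all 32851 windows, CACCC in 52% and both in 10.1%. Both were present in 4 of the 5 windows of the 9 genes (*Hba-a1*, *Klf1*, *Epor* and *Alas2*) and in 8 of all 10 windows read. The *Gata1* window held 2 CACCC matches, 74 and 52 bases before the start, and no GATAA. The *Hba-a2* window had the same sequence as that of *Hba-a1*, shifted by 3 bases, over all 297 bases they share. A match is a description of the letters and not a bound site.

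On the scaled values, 5 of the 7 measured genes were higher on the array labelled p38KO (*Gata1*, *Car1*, *Klf1*, *Epor* and *Alas2*) and 2 were lower (*Hba-a1* and *Car2*). Among all 17195 genes measured, 47.6% were higher. None of the 7 was at least 2-fold higher, against 4.11% of all genes, and none was at least 2-fold lower, against 6.71%. The median log2 difference of the 7 genes was 0.27 beside -0.03 for all genes, whose middle 50% lay between -0.38 and 0.33. As the rule used this contrast, nothing is read from these counts.

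**Figure D1:**
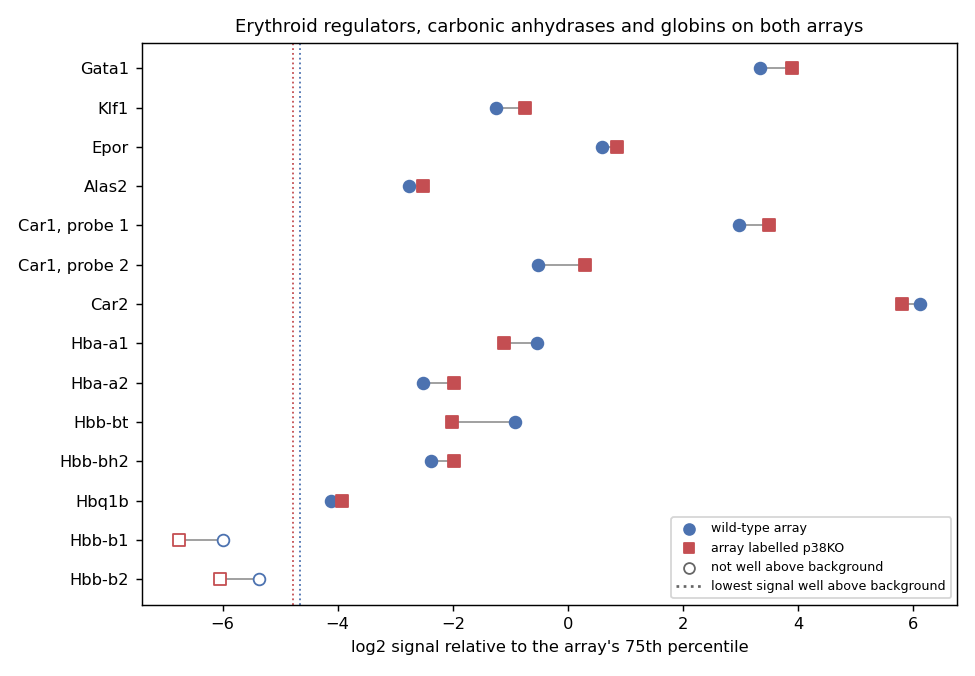
Log2 signal relative to the 75th percentile of each array (x axis) for each probe of the 9 genes and for 4 other globins, with circles for the wild-type array and squares for the array labelled p38KO. Open symbols are not well above background. *Gata1*, *Klf1*, *Epor*, *Alas2* and both *Car1* probes lie further right on the array labelled p38KO, *Car2* and *Hba-a1* further left, and *Hbb-b1* and *Hbb-b2* lie left of the dotted lines at -4.65 and -4.78, the lowest signals well above background.

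*Epor*, the erythropoietin receptor, had a log2 signal of 0.58 on the wild-type array and 0.86 on the array labelled p38KO. The difference of 0.27 is 1.21-fold, larger than the spot SD of 0.11 and the software error of 0.20. Before scaling, the intensities were 215 and 209, a log2 difference of -0.04, so the direction for *Epor* comes with the scaling.

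*Gata1*, which encodes the X-linked zinc finger factor that drives erythroid and megakaryocyte genes, had log2 signals of 3.34 and 3.89. It was 1.46-fold higher on the array labelled p38KO, a difference of 0.55 beside a spot SD of 0.08, and 86.0% of all measured genes had a smaller or more negative difference. *Klf1*, the erythroid Krüppel-like factor that activates adult β-globin, read -1.25 and -0.74, which is 1.42-fold (difference 0.50, spot SD 0.11). Both factors were higher before scaling too, with log2 differences of 0.23 for *Gata1* (intensities of 1451 and 1705) and 0.19 for *Klf1* (60.4 and 68.7). The probes lie at chrX:7536392-7536451 for *Gata1* and chr8:87428881-87428940 for *Klf1* (mm9).

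*Alas2*, the erythroid form of the enzyme that opens heme synthesis, was dim, with intensities of 21.1 and 20.1 and log2 signals of -2.76 and -2.52. Its difference of 0.25 (1.19-fold) was smaller than the spot SD of 0.28. The values of the arrays therefore did not differ beyond the error of a spot, and the sign turned before scaling (-0.07).

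*Car1*, the carbonic anhydrase typical of erythroid cells, was higher on the array labelled p38KO by both probes. The brighter probe read 2.98 and 3.50, a difference of 0.52 or 1.43-fold, and the dimmer one -0.52 and 0.30, a difference of 0.81 or 1.76-fold. The intensities were 1131 and 1301 for the brighter probe and 100.2 and 141 for the dimmer one, so both were also higher before scaling. *Car2*, a carbonic anhydrase found in red cells and in many other cell types, had the opposite direction. Its log2 signal was 6.12 on the wild-type array and 5.81 on the array labelled p38KO, 1.24-fold lower (difference -0.31, spot SD 0.08, software error 0.20). The intensities of *Car2* were 10006 and 6458. The genes share a cluster on chromosome 3, where the *Car2* probe is at chr3:14900206-14900265 (mm9).

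*Hba-a1*, an adult α-globin gene, had a log2 signal of -0.54 on the wild-type array and -1.11 on the array labelled p38KO. It was 1.49-fold lower, a difference of -0.57 beside a spot SD of 0.11, and 16.0% of all measured genes had a more negative difference. The intensities were 98.5 and 53.2. The β-globin probes gave no level: intensities were 2.24 and 1.06 for *Hbb-b1* and 3.49 and 1.74 for *Hbb-b2*, below the limit on each array, and a fold is left out.

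**Figure D2:**
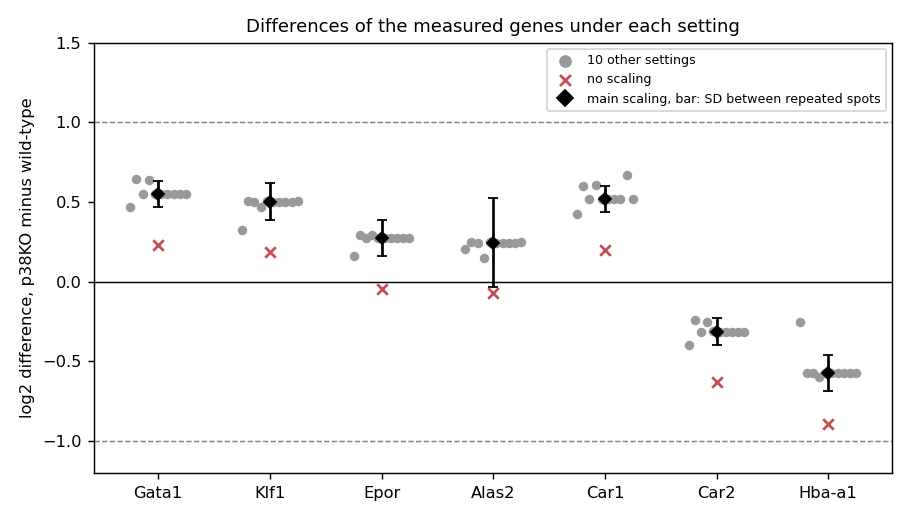
Log2 difference, array labelled p38KO minus wild-type (y axis), for the 7 measured genes. Diamonds are the main scaling with the SD between repeated spots as bars, grey points the 10 other settings and crosses the unscaled values, and dashed lines mark 2-fold. No gene crosses 0 among the 10 settings, most of which leave these genes unchanged or shift them alike. *Epor* and *Alas2* lie just below 0 without scaling (-0.04 and -0.07).

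Other globin genes did not all share the direction of *Hba-a1*. The *Hbb-bt* probe, which reads an adult β-globin gene of C57BL/6 mice, read -0.92 and -2.02 and was 2.14-fold lower (difference -1.10, spot SD 0.28; intensities of 75.7 and 28.4). Under normexp background correction, an alternative treatment of dim signals, the differences were -0.40 for *Hbb-bt* and -0.25 for *Hba-a1*. *Hbb-bt* was the only gene past 2-fold among the 4 other globins measured. The *Hba-a2* probe, which lists the transcripts of both α-globin genes as the *Hba-a1* probe does, was of the other sign, with -2.52 and -1.98 (difference 0.55, spot SD 0.28), with intensities of 24.9 and 29.2. The α-globin probes thus had opposite signs, and the direction of α-globin is not settled by these arrays. *Hbb-bh2* (-2.38 and -1.97) and *Hbq1b* (-4.11 and -3.92) had differences of 0.41 and 0.19, the second within the spot SD of 0.28. The embryonic globins *Hba-x*, *Hbb-bh1* and *Hbb-y*, and *Hbq1a*, stayed below the background limit on both arrays.

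The 17 other erythroid transcription factors were all measured, and 6 had higher and 11 lower values on the array labelled p38KO, where 47.6% of all genes were higher. Their median log2 difference was -0.14. *Ldb1*, the adaptor that joins GATA1 complexes to distant enhancers, alone was past 2-fold, 2.01-fold lower (2.93 and 1.92), where 6.71% of all genes were at least 2-fold lower. It was no longer past 2-fold with quantile normalization (-0.95) or loess (-0.94). *Nfe2*, a globin and platelet gene activator, read 4.72 and 3.85. *Gata2*, the stem cell GATA factor that GATA1 replaces in erythroid cells, read 4.15 and 3.41, a difference of -0.74, opposite in sign to that of *Gata1*. *Tal1* and *Lmo2*, partners of GATA1, differed by -0.10 and -0.07. *Sox6*, which helps to silence embryonic globin, had the largest positive difference of the list, 0.53 (-0.09 and 0.45). *Klf3*, a Krüppel-like repressor, read 0.22 and 0.27. *Zbtb7a* and *Tcf3* are not settled, since their 2 probes each had opposite signs (-0.92 and 0.47 for *Zbtb7a*, 0.38 and -0.55 for *Tcf3*).

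Genes of erythropoietin signalling were measured for 11 of 12, and 4 were higher and 7 lower, where 47.6% of all genes were higher. Their median was -0.40, and -0.018 under normexp background correction. The feedback inhibitor *Socs2* (-2.70 and -4.01) was 2.47-fold lower, and a second probe, dim on the array labelled p38KO, had the same sign (a bound of -2.76 on the log2 scale). The STAT5 target kinase *Pim1* (0.03 and -1.25) was 2.44-fold lower. *Podxl*, a sialomucin of the cell surface, read -3.25 and -4.09, with the sign turned under normexp (0.026), where *Socs2* and *Pim1* were not past 2-fold (-0.43 and -0.80). *Jak2*, the kinase bound to the receptor, had a difference of -0.40, and *Cish*, another STAT5 target, of -0.45. Higher values were found for the kinase *Lyn* (difference 0.73; -2.54 and -1.81) and the inhibitor *Socs3* (0.39), and *Stat5a* differed by 0.10. *Epo*, made by the kidney, stayed below the background limit on both arrays.

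The heme list (17 of 17 measured) was split, with 9 genes higher, 8 lower, none past 2-fold and a median of 0.06. *Fech*, which inserts the iron in the last step, read 0.51 and 1.06 (difference 0.55). *Tspo2*, an erythroid membrane protein, read 0.19 and 0.82, and the mitochondrial carrier *Slc25a39* -2.44 and -1.68. The synthesis enzymes *Urod* (difference -0.42) and *Alad* (-0.33) and the biliverdin reductase *Blvra* (-0.84) had lower values. In the iron list (11 of 11 measured), 8 genes were higher and 3 lower by the brightest probe, with none past 2-fold and a median of 0.11. Over all genes, 47.6% were higher and 10.8% at least 2-fold different either way. *Tfrc*, the transferrin receptor through which erythroid cells take up iron, was higher by all 3 probes (differences from 0.46 to 0.91). The exporter ferroportin, *Slc40a1*, read -2.31 and -1.70. The ferritin genes *Fth1* (difference -0.25) and *Ftl1* (-0.37) and the ferritin receptor *Ncoa4* (-0.39) had lower values. A second *Ftl1* probe had a larger difference of the same sign, -1.07, past 2-fold. The iron transporter *Slc11a2*, counted as higher by its brighter probe, had probes that disagreed (0.66 and -0.67).

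By each gene's brightest probe, the red cell membrane and skeleton list held the largest differences among the erythroid lists. Of its 20 genes 16 were well above background on both arrays, and 12 of these were higher and 4 lower (median 0.36), where 47.6% of all genes were higher. At least 2-fold higher by the brightest probe were 5 of the 16, where 4.11% of all genes were, and none was 2-fold lower. *Xk*, counted as higher (0.40), is not settled, since its other probe had the opposite sign (-1.70). *Ermap*, also counted as higher (0.61), had probes from 0.18 to 1.36. Both shares of all genes include genes measured on 1 array, unlike the 16. Another 3 genes passed the background filter on the array labelled p38KO alone, which favours higher values there. They are left out of these counts, and *Cldn13* and *Sptb* are given as bounds. *Rhag*, the Rh-associated glycoprotein, read -2.64 on the wild-type array and -0.44 on the array labelled p38KO (difference 2.19, 4.58-fold). *Rhd*, its partner in the Rh complex, read -3.38 and -1.34 (2.03, 4.09-fold), and the skeleton protein gene *Add2* -3.53 and -1.58 (1.95, 3.85-fold). *Slc4a1*, the anion exchanger band 3, and *Ank1*, which ties it to spectrin, were named after their values were seen. *Slc4a1* read -2.77 and -1.71 (2.08-fold) and *Ank1* -0.24 and 0.77 (2.02-fold). *Cldn13*, a claudin of erythroid cells, was below background on the wild-type array and at least 5.23-fold higher on the other. The bound was at least 1.77-fold for *Sptb*, the β-spectrin gene, dim on the wild-type array. *Epb42*, also dim there, was 1.35-fold higher with no value replaced, so that fold is not a bound. With normexp background correction, which shrinks differences of dim probes, *Rhag* alone stayed past 2-fold (1.08), and the log2 difference was 0.77 for *Rhd*, 0.67 for *Add2*, 0.48 for *Slc4a1*, 0.73 for *Ank1* and 0.63 for *Cldn13*. *Tmod1* (-2.40 and -3.21), *Epb41* (4.03 and 3.48) and *Tspan33* (1.07 and 0.84) had lower values.

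**Figure D3:**
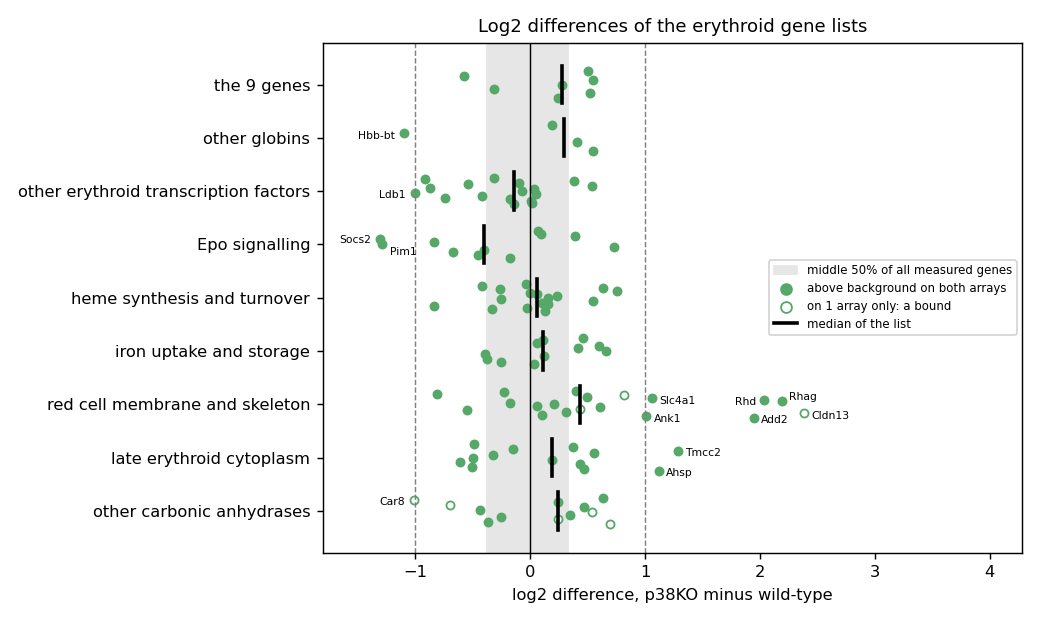
Log2 difference, array labelled p38KO minus wild-type (x axis), for each measured gene of the 9 genes and of the 8 other erythroid lists (rows). Filled points were above background on both arrays, open points are bounds, black ticks are list medians with the bounds included, the grey band is the middle 50% of all genes (-0.38 to 0.33), and dashed lines mark 2-fold. *Rhag*, *Rhd*, *Add2* and *Cldn13* stand furthest right, and *Socs2*, *Pim1* and *Hbb-bt* furthest left.

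Of the late erythroid genes 13 of 14 were measured, 7 higher and 6 lower, where 47.6% of all genes were higher. Their median of 0.19 turned its sign with quantile normalization (-0.023) and with probes averaged per gene (-0.043). *Ahsp*, the chaperone that holds free α-globin, read -0.998 and 0.12 and was 2.17-fold higher, and *Tmcc2* read -4.37 and -3.09 (2.44-fold). Under normexp background correction neither was past 2-fold (0.73 and 0.36). The antioxidant enzymes *Gpx1* (7.93 and 7.32) and *Prdx2* (2.39 and 1.89) and *Bpgm* (4.56 and 4.05), whose product tunes oxygen release from hemoglobin, had lower values. Of the 14 other carbonic anhydrases 7 were well above background on both arrays, and 4 were higher and 3 lower (median 0.24). Another 5 passed the filter on 1 array, which favours a higher value on that array, and are left out of these counts. *Car9* (0.90 and 1.53), *Car4* (2.49 and 2.96) and *Car14* (-3.56 and -3.20) had the largest positive differences among those measured on both arrays. *Car3* (-0.99 and -1.43), *Car11* (-1.46 and -1.83) and *Car13* (-2.66 and -2.91) had the lowest. Under normexp background correction *Car13*, *Car8* and *Car5b* turned their sign (0.075, 0.021 and 0.087). *Car8* was dim on the array labelled p38KO, at least 2.02-fold lower there by its brightest probe, and its other probe, dim on the wild-type array, had the opposite sign (0.11). The other bounds were at least 1.62-fold higher for *Car10* and at least 1.18-fold higher for *Car12*. *Car5b* was 1.62-fold lower and *Car15* 1.46-fold higher with no value replaced, so these folds are not bounds.

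**Figure D4:**
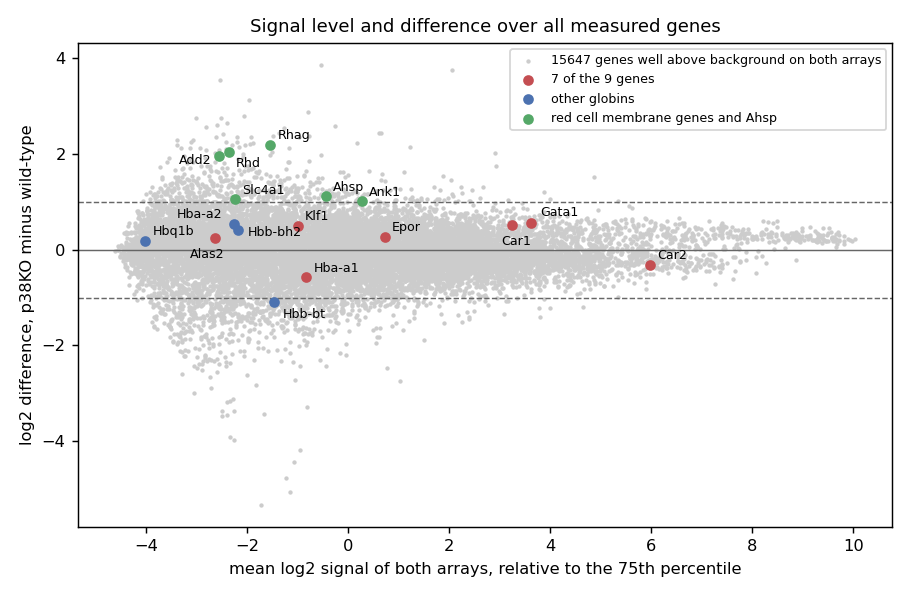
Log2 difference, array labelled p38KO minus wild-type (y axis), against the mean log2 signal of both arrays (x axis) for the 15647 genes well above background on both. Red points are 7 of the 9 genes, blue points other globins and green points red cell membrane genes and *Ahsp*. The red points lie between the dashed 2-fold lines, while *Rhag*, *Rhd* and *Add2* lie near 2 and *Hbb-bt* at -1.10.

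Markers of other cell types also differed between the arrays, and in bulk RNA fewer cells of a type and less RNA per cell cannot be told apart. The 10 neutrophil genes were all measured, 8 higher and 2 lower, 7 of them at least 2-fold higher (median 1.40), where 47.6% of all genes were higher and 4.11% at least 2-fold higher. Among them were *Ltf* (difference 2.23) and *S100a9* (1.91 and 3.92), while *Elane* had a lower value (-0.15 and -1.57). The linear signals of this list, each relative to the 75th percentile, summed to 9.02 on the wild-type array and 26.5 on the other, and to 5.28 and 11.4 without *S100a9*, its brightest gene. Of the 10 B cell genes 6 were well above background on both arrays, and all 6 were higher. *Jchain* (0.18 and 3.93) carried most of the sums of 3.96 and 19.1, which were 2.82 and 3.81 without it. *Ms4a1*, *Ebf1*, *Vpreb3* and *Blk* passed the filter on the array labelled p38KO alone. Of the T cell genes 6 of 8 were measured, 4 higher and 2 lower (sums of 5.94 and 9.51), with *Cd3d* and *Cd3g* below the background limit on both. Of the 6 monocyte genes 3 were well above background on both arrays, 2 higher and 1 lower (sums of 29.5 and 34.2, and 0.62 and 0.66 without *Csf1r*, whose 3 probes ranged from -2.28 to 0.76), and *F13a1* passed on the array labelled p38KO alone. Of the 9 mast cell, basophil and eosinophil genes 5 were well above background on both arrays, 2 higher and 3 lower (sums of 2.69 and 3.32), and *Epx* passed on the array labelled p38KO alone. Of the 11 megakaryocyte genes, which share regulators with the erythroid ones, 10 were well above background on both arrays, 6 higher and 4 lower (sums of 53.8 and 49.3), and *Gp6* passed on the array labelled p38KO alone. Examples are *Pf4* at 4.49 on both arrays, *Gp5* at -1.37 and -0.18 and *Vwf* at 4.43 and 3.88. The part of other cell types in the erythroid values was not tested.

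**Figure D5:**
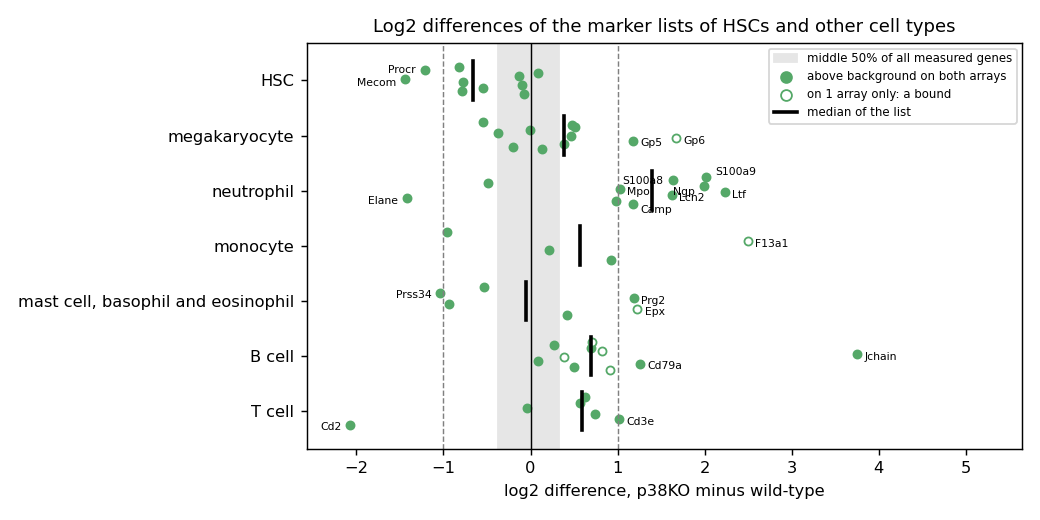
Log2 difference, array labelled p38KO minus wild-type (x axis), for each measured marker gene of HSCs and of 6 other cell types (rows), drawn as for the erythroid lists. The HSC median lies at -0.66 and the neutrophil median at 1.40, and the B cell median of 0.70 includes 4 bounds and is 0.59 over the other 6 genes.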

How the data were processed

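RNA of sorted LT-HSCs from 2-year-old wild-type and p38KO mice was hybridized to Agilent single-colour mouse arrays, 1 array per group on the same slide. The deposited scanner files hold the intensity of every spot, which the authors obtained with Agilent Feature Extraction (11.5.1.1) after its background and trend correction and did not normalize between arrays. A deposited table of log2 values for 35795 probes equals the same signals minus 1 constant per array (7.16 and 6.84). It was used as an alternative. Coordinates of probes are those of mm9, as the array design gives them.

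Control spots and spots with outlier flags were left out, and the log2 intensity of a probe's spots was averaged and expressed relative to each array's 75th percentile. Names came from a RefSeq table (GRCm38.p6, names alone) and were found for 31779 of 55662 probes (57.1%), while *Ahsp*, which the table lacks, kept its array name. Each gene was read by its brightest probe and kept if 1 array or both had it well above background. A value under that limit was replaced by the array's lowest signal over the limit, where lower, so that the fold is a bound. Values under the limit but over that signal were kept, and their folds are not bounds. Well above background were 67.9% of probes on the wild-type array and 69.0% on the other, and none was saturated. The number of arrays limits the precision. No test was possible with 1 array per group, and a rule of size (at least 2-fold) stood in for it. Folds, medians and counts were computed with Python (3.11.15) and pandas (2.3.3), and tested on simulated data. Normexp (offset 50), quantile and loess (span 0.3) alternatives used limma (3.58.1) in R (4.3.3), and the others were centring on the median, the mean of probes, outlier spots kept, no floor, no filter and a filter on both arrays.

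The 9 genes and all lists were chosen with earlier results of these data known. Named are all 9 genes and, of each other list, the 3 largest differences each way among genes measured on both arrays, plus bounds. Some genes that the rule would name are not reported here. Other genes (*Gata2*, *Tal1*, *Lmo2*, *Jak2*, *Cish*, *Slc4a1*, *Ank1* and *Pf4*) were named after their values were seen.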

Additional observations from a re-analysis of the deposited data

How the results depend on the processing

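The 7 measured genes kept their direction under all 10 alternatives, with 5 higher and none past 2-fold in each. Most alternatives could not turn them. The filter and floor settings leave a gene above background on both arrays as it is. The mean of probes changes only genes with more than 1 measured probe. Median centring and the authors' values shift all genes by the same small amount. Normexp, quantile and loess were the settings that could change the direction of these genes. A value is said to move here if it changed by more than 0.14, the spot SD over all signal levels. Of the 20 counts, medians and single values of the 9 genes and lists, 7 moved or reversed under some alternative. Of the 56 genes named from the lists 43 did, 35 of them under normexp. Under normexp, which draws dim signals together, the log2 difference was -0.25 for *Hba-a1* and 0.32 for *Klf1*. The medians there were -0.018 for erythropoietin signalling and 0.24 for the red cell membrane list, genes measured on 1 array included. With the mean of probes *Car1* had 0.67. The median of the other globins reversed to -0.18 with no filter, which lets in globins not above background, and that of the late erythroid list to -0.023 with quantile normalization and -0.043 with the mean of probes. Of the single genes, *Podxl* (0.026), *Car13* (0.075), *Car5b* (0.087) and *Car8* (0.021) reversed under normexp, and *Tcf3* (-0.081) and *Slc11a2* (-0.0037) with the mean of probes, where opposite probes cancel. *Rhag* stayed past 2-fold under all 10 alternatives, with a lowest value of 1.08 under normexp. *Rhd*, *Add2*, *Ahsp*, *Tmcc2*, *Ank1*, *Hbb-bt*, *Socs2* and *Pim1* stayed past it under 9 of the 10, *Slc4a1* and *Ldb1* under 8, and *Cldn13*, which had a value under 8 alternatives, under 7. These counts include the settings that could not change a gene above background on both arrays.

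No paired analysis was possible because each group has 1 array. For the same reason no array was left out, and a slide block was not run, as both arrays share the slide. Signals that were dim on 1 array or both limit what the differences of several genes show. Among these are *Alas2*, *Hba-a2*, *Hbb-bt*, *Rhag*, *Rhd*, *Add2*, *Slc4a1*, *Cldn13*, *Tmcc2* and *Socs2*. The *Hbb-b1* and *Hbb-b2* probes give no measure of β-globin here.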
